A study of Rattus norvegicus with 18 samples.

Results

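Potassium channel subunits were followed in rat dorsal root ganglia, where sensory neurons have their cell bodies among glia and vessels. Members were the protein-coding genes whose symbol begins with Kcn, a family letter and a number, and that had at least 180 reads summed over the 18 libraries. Of 92 such symbols among the 25678 genes of the deposited table, 79 met the minimum and 13 did not. Kcns2 with 214 reads and Kcnk7 with 217 lay just inside the minimum, and Kcnq1 with 178 and Kcng4 with 173 just outside it. Messenger RNA was sequenced in 6 groups of 3 libraries, labelled by disease state and treatment. Ctrl carried no added treatment in its labels, Ctrl_solvent was the Ctrl state given solvent, Sham_solvent and Sham_herb were the Sham state given solvent or herb, and NPP_solvent and NPP_herb were the NPP state given solvent or herb. The series text describes a neuropathic pain model and Shentong Zhuyu decoction, a herbal preparation, and asks how the decoction acts on gene regulation. The sources used here do not give strain, age, sex, surgery, dose or sampling time. Nor do the labels state that each library is a separate animal, and p-values therefore rest on a spread between libraries that may be technical.

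Potassium channels set the resting potential of a neuron, repolarize it after each action potential and limit repetitive firing. Voltage-gated subunits of the Kv1 to Kv4, KCNH and KCNQ families form the pore, silent Kv subunits join Kv2 subunits without forming channels alone, and Kv beta, KChIP, KCNE and BK beta proteins are auxiliary. Inward rectifiers (Kir) and K2P channels carry current near rest, and a further family opens on intracellular calcium or sodium. In sensory ganglia, loss of potassium current is a known feature of injured, hyperexcitable neurons, and Kcnj10, which encodes Kir4.1, is a channel of satellite glia.

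Promoter windows, from 250 bases before to 50 after the gene start, were available in RefSeq (build GRCr8) for 54 of the 79 members. The median GC content of these 300 bases was 61.2% in the members and 52.3% over all 27457 promoters. The TATA motif TATAAA, searched on both strands, was found in 2 of 54 members (3.70%) and in 14.3% of all promoters. Both members with it were inward rectifiers, Kcnj1 and Kcnj13. The core TGACG of the cyclic AMP response element was in 12 of 54 members (22.2%) and 22.0% of all promoters, while the full element TGACGTCA, which contains that core, was in 0 members and 1.91% of all. The AP-1 motif TGANTCA, the kind of site that Atf3 dimers with Jun proteins bind, was in 2 members (3.70%), Kcnj1 and Kcnj16, and 7.33% of all. A match is only a string of letters in this window. The windows below show the GC-rich kind, from Kcnab2, the most abundant member, Kcna2, a major Kv1 pore subunit, and Kcnc1, a Kv3 pore subunit. Beside them is the window of Kcnj13, with a TATA motif and 46.3% GC. Capitals mark CG dinucleotides and the TATAAA motif.
Kcnab2: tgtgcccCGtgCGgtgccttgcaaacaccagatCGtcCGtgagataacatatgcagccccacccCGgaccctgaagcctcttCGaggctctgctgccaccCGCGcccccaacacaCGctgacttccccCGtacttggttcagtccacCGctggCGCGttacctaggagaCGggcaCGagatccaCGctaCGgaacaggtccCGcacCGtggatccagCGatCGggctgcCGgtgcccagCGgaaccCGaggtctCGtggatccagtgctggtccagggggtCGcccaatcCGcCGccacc
Kcna2: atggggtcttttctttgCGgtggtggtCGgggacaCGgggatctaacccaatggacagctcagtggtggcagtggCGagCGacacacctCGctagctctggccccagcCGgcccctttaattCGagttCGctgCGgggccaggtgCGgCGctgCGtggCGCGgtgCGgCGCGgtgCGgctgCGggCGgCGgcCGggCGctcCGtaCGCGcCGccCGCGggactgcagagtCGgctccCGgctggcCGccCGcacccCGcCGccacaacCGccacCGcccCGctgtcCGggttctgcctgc
Kcnc1: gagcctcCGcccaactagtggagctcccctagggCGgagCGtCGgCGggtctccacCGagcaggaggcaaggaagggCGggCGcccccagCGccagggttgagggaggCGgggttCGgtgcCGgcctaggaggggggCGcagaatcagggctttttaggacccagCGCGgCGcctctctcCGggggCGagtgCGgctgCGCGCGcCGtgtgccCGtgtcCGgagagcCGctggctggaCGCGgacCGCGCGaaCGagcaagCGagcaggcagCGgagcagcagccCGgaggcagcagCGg
Kcnj13: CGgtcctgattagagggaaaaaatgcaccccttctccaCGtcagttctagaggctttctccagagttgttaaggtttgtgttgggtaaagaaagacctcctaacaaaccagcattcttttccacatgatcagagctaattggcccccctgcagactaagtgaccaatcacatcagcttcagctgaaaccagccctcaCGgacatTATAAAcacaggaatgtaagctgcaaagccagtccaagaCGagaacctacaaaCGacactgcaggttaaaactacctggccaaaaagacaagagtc
The Kcnab2 window lies at chr5:168270711-168271010, minus strand, that of Kcna2 at chr2:197393280-197393579, plus strand, that of Kcnc1 at chr1:106038997-106039296, plus strand and that of Kcnj13 at chr9:95518937-95519236, minus strand. They hold 28, 40, 36 and 5 CG dinucleotides. Across the 54 members with a window, the number of CG dinucleotides and the mean FPKM had a Spearman rho of 0.29, given as a description across genes. The median was 18.5 CG dinucleotides in the 36 members at 1 FPKM or more and 9 in the 18 members below.

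Levels between genes are compared here as FPKM, reads scaled to gene length and library size. Of the 79 members, 16 had a mean of at least 10 FPKM over the 18 libraries, 38 lay between 1 and 10, and 25 were under 1. The 10 most abundant members held 63.3% of the summed FPKM of the family. Auxiliary subunits were among the most abundant: the 3 Kv beta genes summed to 153 FPKM (26.2% of the family) and the 4 KChIP genes to 72.7 FPKM (12.4%). Kcnab2, whose protein binds the cytoplasmic face of Kv1 channels, ran from 106 to 143 FPKM with a median of 122. Every library of Kcnab2 was above every library of any other member. Kcnab1, the second Kv beta gene, had a mean of 29.1 FPKM. Kcnip2 and Kcnip3, calcium-binding partners of Kv4 channels, had means of 27.3 and 25.3 FPKM.

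**Figure D1:**
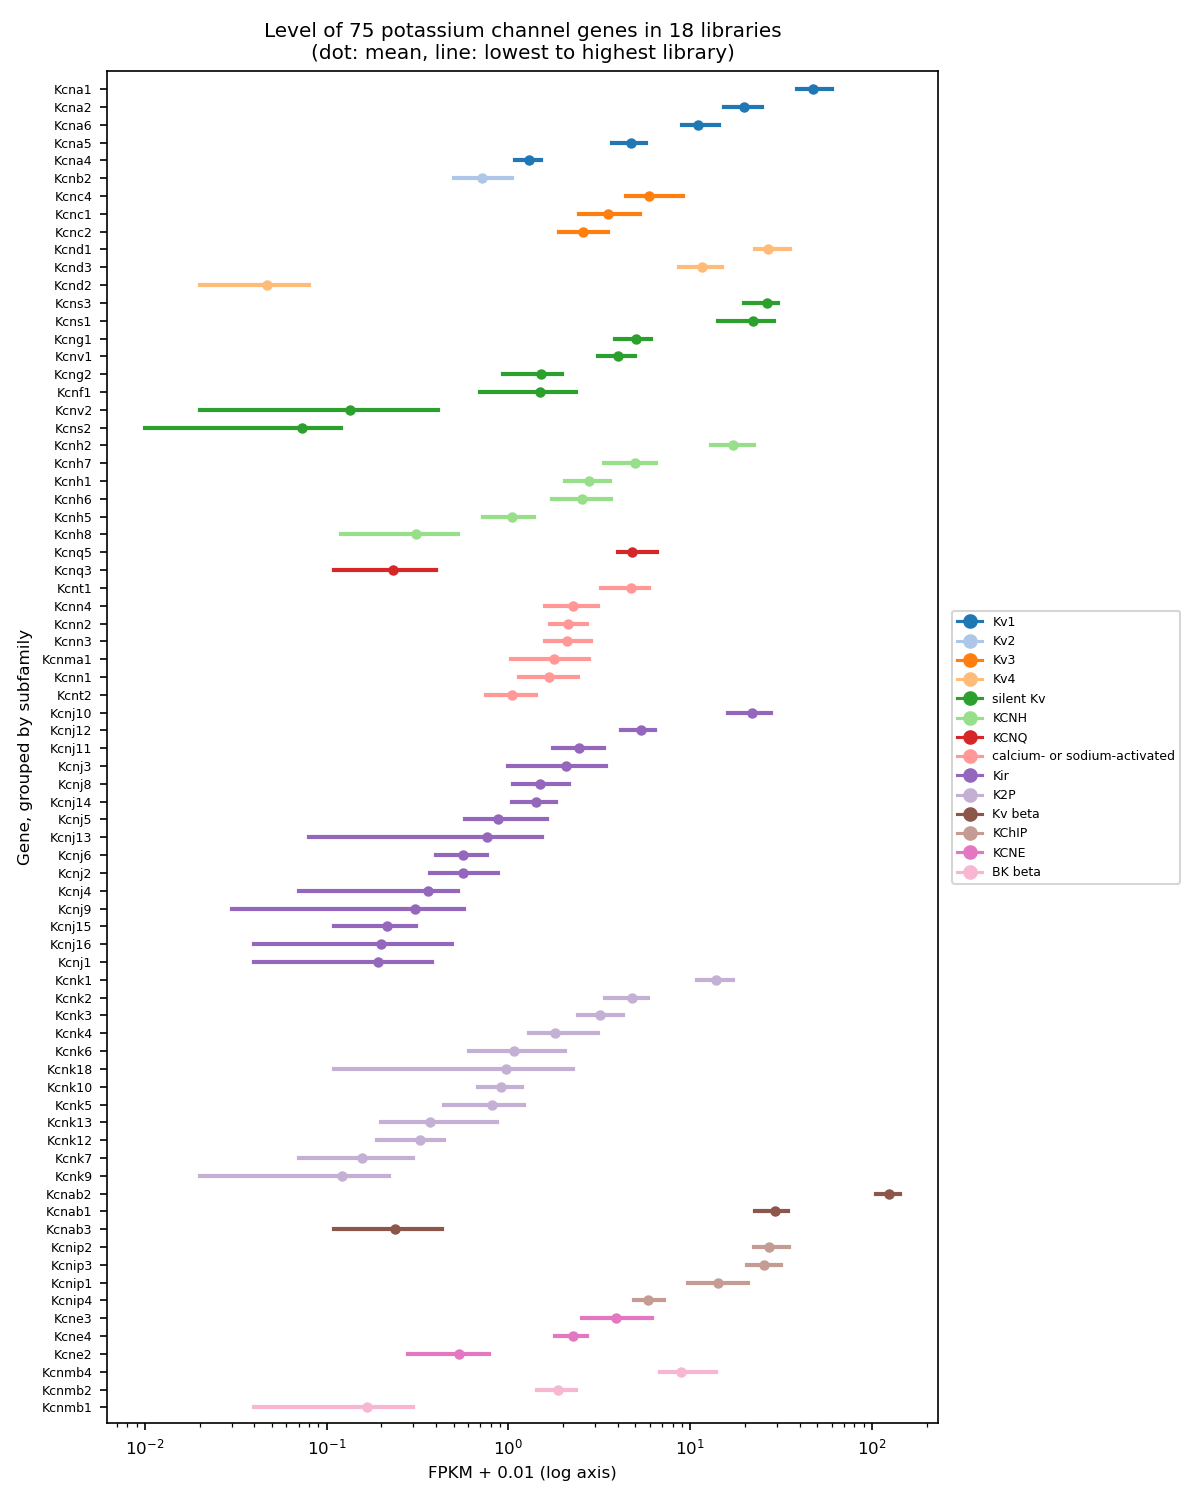
FPKM of 75 of the 79 potassium channel genes on a log axis after adding 0.01, grouped by subfamily; dots are means over 18 libraries and lines run from the lowest to the highest library. Kcnab2 lies apart at the top, and Kcnd2 and Kcnq3 lie far below their subfamily neighbours.

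Among pore subunits, Kv1 led with a sum of 84.5 FPKM (14.4% of the family). Kcna1 (Kv1.1) ran from 38.6 to 60.7 FPKM with a median of 46.2, and Kcna2 (Kv1.2) from 15.4 to 25.0 with a median of 20.3. Both form the low-threshold channels beside the nodes of myelinated axons. Kcna6 followed at a mean of 11.0 FPKM. Kcna4 (Kv1.4), an A-type subunit of small sensory neurons, had a mean of 1.29 FPKM.

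Kv4, a source of somatic A-type current, was carried by Kcnd1 with a mean of 26.7 FPKM and Kcnd3 with 11.6. Kcnd2, the other Kv4 gene, ran from 0.01 to 0.07 FPKM, so its highest library was far below the lowest of the other Kv4 genes. Silent subunits summed to 60.6 FPKM and were led by Kcns3 (mean 26.4) and Kcns1 (mean 22.0). Kcnb2, which encodes a Kv2 partner of the silent subunits, had a mean of 0.705 FPKM. Of the Kv3 genes, Kcnc4 had a mean of 5.93 FPKM and Kcnc1 3.53.

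KCNQ subunits carry the M current, which restrains repetitive firing. Kcnq5 had a median of 4.80 FPKM and reached 6.59 in its highest library. Kcnq3 ran from 0.10 to 0.39 FPKM with a median of 0.235, below every library of Kcnq5. Kcnh2, which encodes the ERG1 channel, had a mean of 17.1 FPKM and led the KCNH family.

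Kir genes summed to 38.6 FPKM, of which Kcnj10 alone had a mean of 21.9. The K2P family was led by Kcnk1 (13.8 FPKM) and Kcnk2, or TREK-1 (4.78). Kcnk18 (TRESK), a K2P channel of nociceptors, had a mean of 0.962 FPKM and ran from 0.10 to 2.27. The sodium-activated Kcnt1 led its group at 4.74 FPKM, and the BK pore gene Kcnma1 had 1.77. Its auxiliary Kcnmb4 had 8.93 FPKM, and Kcne3 led the KCNE genes at 3.92.

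Replicate spread of the members was close to that of other genes. The median within-group SD on the log2 CPM scale (CPM, counts scaled to library size after TMM) was 0.24 for members and 0.24 for all 17043 genes tested. At a mean of 10 CPM or more it was 0.19 for 44 members and 0.17 for all such genes. Kcnab2 varied least among members with 0.13, and the retinal silent subunit gene Kcnv2 most with 1.25. In the comparisons between 2 groups, the 95% interval of a member's change reached a median of 0.41 to 0.42 to either side on the log2 scale.

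Depth ran from 18170925 to 50289652 reads per library, and members took 0.314% to 0.421% of them. The marker lists showed ganglion tissue: pan-neuronal, satellite glia and Schwann cell genes were abundant in all libraries, while the spinal cord list summed to only 4.6 to 12.4 CPM. The skeletal muscle list summed to 150 to 523 CPM, with group means from 233 in NPP_herb to 388 in Ctrl. Its part in the member values was not tested. In bulk tissue, fewer cells of a type and less RNA per cell cannot be told apart.

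The comparison of NPP_solvent with Sham_solvent addressed the labelled pain state under solvent. In edgeR's quasi-likelihood test, 0 of 79 members passed an adjusted p of 0.05 (background 0% of all genes). At an unadjusted p under 0.05 there were 8 members, 5 higher and 3 lower in NPP_solvent, against a background of 5.67% of all genes. That count was 4 without Sham_solvent replicate 3, 5 without NPP_solvent replicate 1 and 2 without NPP_solvent replicate 3, with 3.32%, 4.65% and 2.46% of all genes in those fits. DESeq2 and limma also called 0 members. The median member was 0.08 higher on the log2 scale, against 0.01 over all genes tested, with 48 members higher and 31 lower. With 1 library left out that median ran from 0.01 (without Sham_solvent replicate 3) to 0.13 (without Sham_solvent replicate 2).

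The smallest p belonged to Kcnn1, which encodes the SK1 calcium-activated channel. Kcnn1 was at 6.54, 6.52 and 7.06 CPM in Sham_solvent and at 8.67, 8.32 and 12.0 in NPP_solvent. The groups did not overlap, and the log2 difference was 0.53 ± 0.18 (SE), with an adjusted p of 0.755 by edgeR. Kcnk12, a K2P family gene, was at 2.40, 1.87 and 1.62 CPM in Sham_solvent and 2.95, 3.29 and 3.10 in NPP_solvent, also without overlap (log2 difference 0.67 ± 0.28). Both genes, and members named by p in later comparisons, were picked in these same libraries, so a lack of overlap is no separate support. Kcnn3, which encodes SK3, differed by 0.38 ± 0.16 and the silent subunit gene Kcng1 by 0.29 ± 0.13. Kcnk18 differed by 1.43 ± 0.68, but its Sham_solvent libraries were at 0.162, 1.83 and 0.304 CPM and overlapped NPP_solvent at 1.79, 1.42 and 3.34. On the lower side, the Kv beta gene Kcnab3 differed by -0.92 ± 0.40, the Kv3 gene Kcnc1 by -0.41 ± 0.19 and the auxiliary Kcne3 by -0.51 ± 0.23. Beside these, all 15 nociceptor markers were higher in NPP_solvent with a median of 0.26, and 10 of 15 large-diameter neuron markers were lower with a median of -0.12. Red blood cell markers were lower in 10 of 10 genes with a median of -1.80. Nerve injury markers other than Atf3 were higher in 17 of 19 genes with a median of 0.58. Their part in the member values was not tested.

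For 6 further members with a known place in the ganglion, each 95% interval included 0. Kcna1 differed by -0.03 (95% interval -0.35 to 0.28), Kcna2 by 0.13 (-0.26 to 0.51) and Kcna4 by 0.09 (-0.17 to 0.35). Kcnd3 differed by 0.18 (-0.17 to 0.54). Kcns1, whose human relative is known from pain genetics, differed by -0.40 (-0.84 to 0.04). Kcnj10 of satellite glia differed by 0.09 (-0.17 to 0.35).

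**Figure D2:**
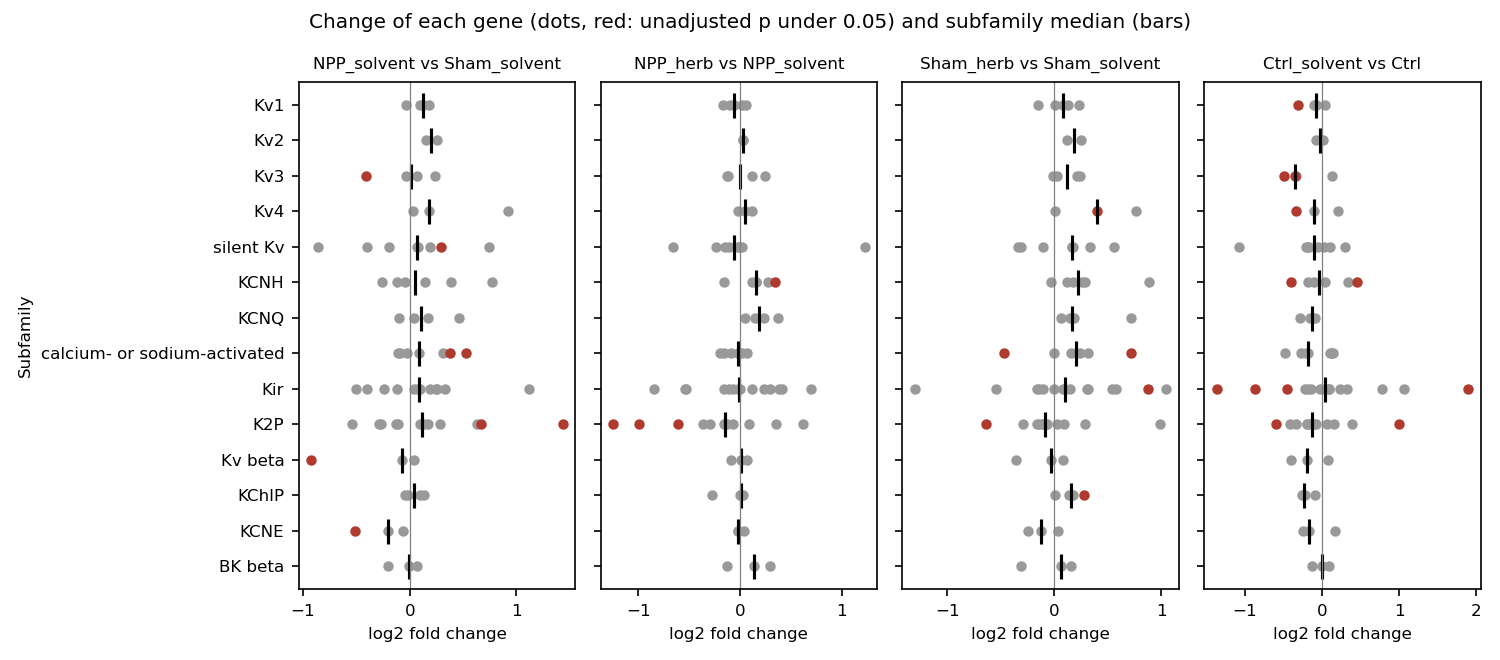
Log2 fold change of every member (dots, red where unadjusted p is under 0.05) and the median of each subfamily (bars) in 4 comparisons. Members lie on both sides of 0 in most subfamilies.

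NPP_herb and NPP_solvent were compared for the effect of the herb in the NPP state. Again 0 members passed (background 0%). At an unadjusted p under 0.05 there were 4 members against a background of 1.87% of all genes, 1 higher and 3 lower. Leaving out a library moved this count to 1 (without NPP_solvent replicate 2 or NPP_herb replicate 2) or 2 (without NPP_solvent replicate 1 or Ctrl replicate 3), with 1.63%, 1.98%, 1.79% and 1.85% of all genes in those 4 fits. The member median was -0.01, the same as over all genes, with 37 higher and 42 lower. It ran from -0.09 without NPP_herb replicate 3 to 0.04 without NPP_solvent replicate 3. Beside this, red blood cell markers were higher in 10 of 10 genes (median 2.25), and nerve injury markers in 16 of 19 (median 0.26). Nociceptor markers were lower in 13 of 15 (median -0.08) and macrophage markers in 12 of 15 (median -0.26). Their part in the member values was not tested. Kcnh5, a KCNH family gene, was at 16.8, 14.4 and 15.1 CPM in NPP_solvent and 18.2, 21.1 and 19.3 in NPP_herb, without overlap (log2 difference 0.34 ± 0.15). Kcnk12 was lower in NPP_herb at 1.45, 1.78 and 2.82 CPM (-0.61 ± 0.28), as was the weakly expressed K2P gene Kcnk7 (-1.25 ± 0.57). Kcnk13, another weakly expressed K2P gene, was at 3.07, 1.70 and 1.09 CPM in NPP_solvent and 1.18, 0.892 and 0.856 in NPP_herb, with overlap. This comparison and the preceding comparison share the NPP_solvent libraries.

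Sham_herb and Sham_solvent gave the herb effect without the NPP state. In this comparison 0 members passed (background 0%), and 6 had an unadjusted p under 0.05 (background 9.89%), 4 higher and 2 lower. The count was 20 (25.3% of members) without Sham_solvent replicate 2, a fit in which 24.4% of all genes were under 0.05. The member median was 0.10 against 0.01 over all genes, with 52 higher and 27 lower. Kcnn1 was at 9.56, 12.8 and 10.8 CPM in Sham_herb, above all Sham_solvent libraries, with a log2 difference of 0.72 ± 0.18 and an adjusted p of 0.491 by edgeR. Kcnj5, a G protein-gated inward rectifier gene, was at 2.64, 2.79 and 2.43 CPM in Sham_solvent and at 4.97, 4.89 and 4.54 in Sham_herb (0.87 ± 0.28). Its Ctrl libraries, at 2.80, 5.19 and 7.05 CPM, ran from just above Sham_solvent to above Sham_herb. Kcnd3 (0.40 ± 0.16) and its partner Kcnip2 (0.28 ± 0.11) were higher, and the SK4 gene Kcnn4 (-0.47 ± 0.17) and the K2P gene Kcnk5 (-0.64 ± 0.28) lower. Beside this, nociceptor markers were higher in 13 of 15 genes (median 0.31, 6 at p under 0.05), macrophage markers lower in 14 of 15 (median -0.50) and red blood cell markers lower in 10 of 10 (median -2.60). Skeletal muscle markers were lower in 8 of 10 (median -0.48). Their part in the member values was not tested.

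**Figure D3:**
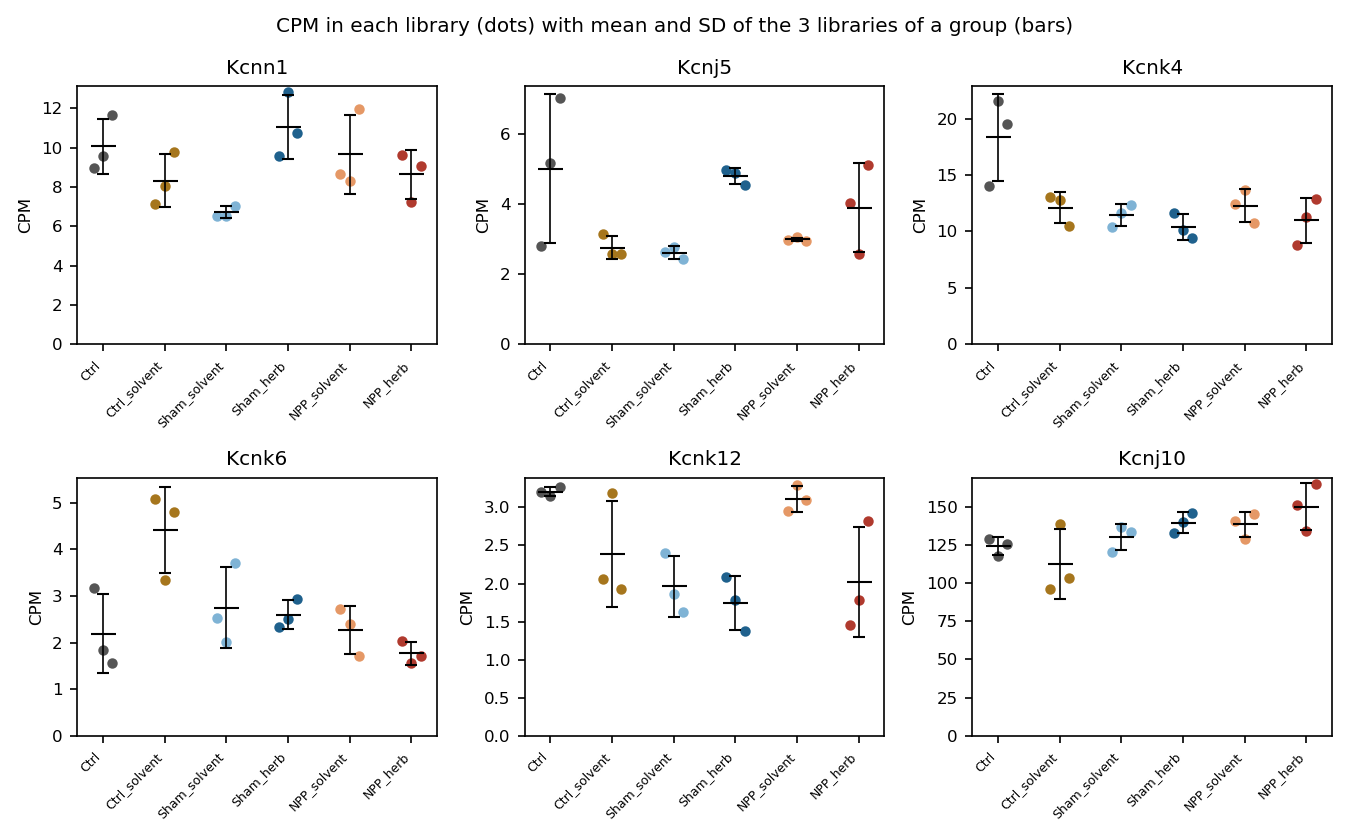
CPM of 6 members in each library (dots) with the mean and SD of each group of 3 (bars). Kcnn1 and Kcnj5 are lowest in Sham_solvent, Kcnk4 is highest in Ctrl, and Kcnk6 is highest in Ctrl_solvent.

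The herb effect in NPP minus that in Sham was tested directly as an interaction. Of 79 members 0 passed (background 0%), and 3 had an unadjusted p under 0.05 (background 3.40%), a count that was 8 without Sham_solvent replicate 2 and 8 without NPP_herb replicate 3, with 13.5% and 6.80% of all genes. Kcnn1 had the smallest p, with a difference of -0.88 ± 0.25 and an adjusted p of 0.920 by edgeR. It also had the smallest p in NPP_solvent against Sham_solvent and in Sham_herb against Sham_solvent. Both of these comparisons and the interaction use the same Sham_solvent libraries, the group where Kcnn1 was lowest, so they are not separate results. In the interaction nociceptor markers were lower in 13 of 15 genes (median -0.39, 3 at p under 0.05) and red blood cell markers higher in 10 of 10 (median 4.95), and their part was not tested. Between NPP_herb and Sham_herb 0 members passed (background 0%) and 0 had an unadjusted p under 0.05 (background 1.40%), a count of 0 to 6 with 1 library left out and highest without NPP_herb replicate 3, where 2.57% of all genes were under 0.05. With all libraries kept, nerve injury markers were higher in NPP_herb than in Sham_herb in 19 of 19 genes (median 0.58), and their part was not tested. Between Sham_solvent and Ctrl_solvent 0 passed (background 0%) and 2 had an unadjusted p under 0.05 (background 6.12%), a count that was 0 without Sham_solvent replicate 1, 1 without Sham_herb replicate 1, 6 without Ctrl_solvent replicate 2 and 9 without Sham_solvent replicate 2, with 4.46%, 5.73%, 10.4% and 14.7% of all genes in those fits. With all libraries kept, nerve injury markers were lower in Sham_solvent than in Ctrl_solvent in 17 of 19 genes (median -0.49). Macrophage markers were lower in 13 of 15 (median -0.88), and the part of both lists was not tested. For NPP_solvent and Ctrl_solvent 0 passed (background 0%) and 4 had an unadjusted p under 0.05 (background 5.50%), 9 without Ctrl_solvent replicate 2. In that fit 9.33% of all genes had an unadjusted p under 0.05. By adjusted p 1 member was called there, Kcnj10 (0.48, adjusted p 0.0352 by edgeR), and 1.08% of all genes were called. In the fit of all libraries, macrophage markers were lower in NPP_solvent than in Ctrl_solvent in 15 of 15 genes (median -0.72). Nociceptor markers were higher in 14 of 15 (median 0.20), and the part of both lists was not tested.

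Ctrl_solvent and Ctrl were compared for solvent against no added treatment in the Ctrl state. Between Ctrl_solvent and Ctrl 0 members passed (background 0%), and 12 (15.2%) had an unadjusted p under 0.05 (background 13%), 3 higher and 9 lower. Left-out libraries moved the count to 19 (Ctrl replicate 1), 4 (Ctrl replicate 3), 6 (Ctrl_solvent replicate 1), 22 (Ctrl_solvent replicate 2) and 4 (Ctrl_solvent replicate 3), where the shares of all genes were 13.3%, 9.83%, 8.64%, 18.6% and 7.09%. The member median was -0.11 against 0.01 over all genes, with 29 higher and 50 lower. Kcnk4, which encodes the mechanosensitive TRAAK channel, was at 14.1, 21.5 and 19.5 CPM in Ctrl and at 13.0, 12.7 and 10.5 in Ctrl_solvent. The groups did not overlap, the difference was -0.60 ± 0.17, and the adjusted p was 0.146 by edgeR and 0.0391 by DESeq2, which called 2.74% of all genes. Kcnk6 differed in the other direction, from 3.17, 1.84 and 1.57 CPM in Ctrl to 5.08, 3.35 and 4.81 in Ctrl_solvent (1.00 ± 0.30, adjusted p 0.165 by edgeR). All 4 KChIP members were lower, with a median of -0.23, and none of them at p under 0.05. Without Ctrl_solvent replicate 2, edgeR called 2 members lower in Ctrl_solvent, Kcnd1 (-0.48, adjusted p 0.0434) and Kcns2, a silent subunit gene close to the read minimum (adjusted p 0.0203), where 4.22% of all genes were called. Macrophage markers moved with this comparison: 14 of 15 were higher in Ctrl_solvent with a median of 1.83, and their summed level was 275 to 588 CPM in Ctrl and 548 to 1917 in Ctrl_solvent. Nerve injury markers were higher in 17 of 19 genes with a median of 0.55, and their summed level was 357 to 474 CPM in Ctrl and 376 to 1032 in Ctrl_solvent. Of 19 neuron markers 14 were lower with a median of -0.13, and 13 of 15 myelinating Schwann cell markers with -0.14. Large-diameter neuron markers were lower in 12 of 15 (median -0.17) and nociceptor markers in 12 of 15 (median -0.15). Their part in the member values was not tested.

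Across all 6 groups at once, 0 members passed (background 0%) and 11 had an unadjusted p under 0.05 (background 10.2%). This count was 7 without Ctrl replicate 3, with 8.51% of all genes. DESeq2 called 3 members in the same test, Kcnk4 (adjusted p 0.00468), Kcnk6 (0.0447) and Kcnh5 (0.0449), and 2.81% of all genes. Without Ctrl_solvent replicate 2 edgeR called 1 member, Kcnj10 (adjusted p 0.0463), and 1.83% of all genes.

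Atf3, a transcription factor switched on in sensory neurons by axon injury, varied widely within groups. It was at 9.53 to 15.9 CPM in 11 libraries and 29.4 to 107 in 7, and the 7 included libraries of Ctrl_solvent, Sham_solvent, Sham_herb, NPP_solvent and NPP_herb. Each gene was therefore fitted on log2 CPM of Atf3 with the group kept in the model. Of all genes 43 were called, 42 with a positive slope and 1 with a negative slope, and 11 of 19 nerve injury markers were among those called up. Of the 79 members 0 were called (background 0.252%), and 13 had an unadjusted p under 0.05 (background 5.96%). Of those 13, 12 had a negative slope, and over all genes at the same threshold 544 had a negative and 471 a positive slope. The count was 7 without Ctrl_solvent replicate 2 and 8 without NPP_herb replicate 3, with 3.83% and 3.32% of all genes in those fits. The median slope was -0.06 per doubling of Atf3 in the members and 0.00 over all genes. Slopes also went with gene length. With all genes put in 3 equal classes by length, the median slope was 0.03 in the shortest class and -0.02 in the longest. Among members it was 0.10 in the 7 of the shortest class and -0.06 in the 44 of the longest. Over the alternatives that keep all libraries, among them a length covariate, the member median ran from -0.063 to -0.027. The cause of these slopes was not tested.

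The members under 0.05 with a negative slope included Kcnh2, Kcnh7, Kcna2, Kcnk12, Kcnd1, Kcnc1, Kcnab2, Kcnn2, Kcna1, Kcns1 and Kcnj6. The 1 with a positive slope was Kcnmb4, the shortest member among those at 0.5 FPKM or more (1132 bases). Kcnh2 had the smallest p, with a slope of -0.12 ± 0.03 and an adjusted p of 0.109 by edgeR. DESeq2 gave it an adjusted p of 0.00917 (0.540% of all genes called), edgeR without the group term gave 0.0270 (0.475% called), and over all alternatives its adjusted p ran from 0.00917 to 0.996. Without NPP_herb replicate 3 the edgeR value was 0.996. Kcnh2 was at 106, 114 and 122 CPM in Ctrl, 89.0, 100 and 68.5 in Ctrl_solvent, 83.0, 91.3 and 90.8 in NPP_solvent and 83.4, 82.5 and 120 in NPP_herb. In Ctrl_solvent and NPP_herb the library with the lowest Kcnh2 was the library with the highest Atf3. Since the Atf3 values fall apart into the 2 sets, no pooled correlation is given. Within the sets r was -0.69 (n = 11) and -0.71 (n = 7) for Kcnh2, 0.09 and -0.27 for Kcnh7, and -0.07 and -0.17 for Kcna2. These values are a description only, since the members were picked by their slope on Atf3 in the same libraries, and the set of 11 mixes groups and holds all 3 Ctrl libraries, which had the lowest Atf3 and high Kcnh2. Of 15 large-diameter neuron markers 13 had a negative slope, 5 of them at p under 0.05, and their part was not tested.

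**Figure D4:**
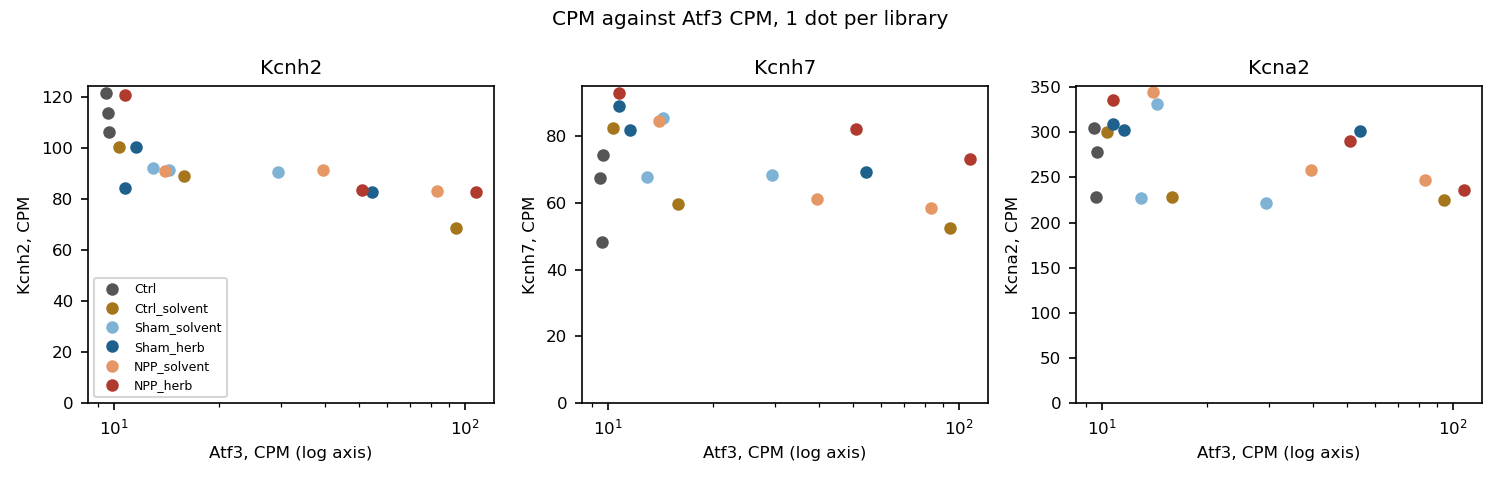
CPM of Kcnh2, Kcnh7 and Kcna2 against CPM of Atf3 on a log axis, 1 dot per library, coloured by group. Kcnh2 is lowest in a Ctrl_solvent library and is highest where Atf3 is lowest.

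Auxiliary proteins outside the Kcn symbols were taken from a fixed list of 34 partners, of which 32 were tested. In the 3 main comparisons 0 partners were called (background 0% of all genes in each). At an unadjusted p under 0.05, 2 partners were higher and 2 lower in NPP_solvent against Sham_solvent (background 5.67%). There were 0 in NPP_herb against NPP_solvent (1.87%), and 4 higher and 0 lower in Sham_herb against Sham_solvent (9.89%). For the slope on Atf3 0 partners were called (background 0.252%) and 7 had an unadjusted p under 0.05 (background 5.96%), all with a negative slope. They were the Kv4 auxiliaries Dpp6 (-0.07) and Dpp10 (-0.10), the sulfonylurea receptor Abcc8 (-0.11), the Kv2 auxiliary Amigo1 (-0.07), the juxtaparanodal genes Cntnap2 (-0.08) and Adam22 (-0.08), and the Kv1-associated Lgi3 (-0.08). Of 22 transcription and chromatin regulators known to act on potassium channel genes, 0 were called in any comparison between 2 groups, where 0% of all genes were called. Rest, a repressor of neuronal genes, was at 8.44 CPM in Ctrl and 12.0 in Ctrl_solvent (0.51 ± 0.15, adjusted p 0.160 by edgeR). Cebpb was 1.18 lower on the log2 scale in Sham_herb than in Sham_solvent (adjusted p 0.491 by edgeR).

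Gene length was checked because members are long. The length implied by counts and FPKM had a median of 5800 bases in members and 3747 over all genes tested, and 81.0% of members were longer than the median gene. Among members at 0.5 FPKM or more it ran from 1132 bases for Kcnmb4 to 21084 for Kcna4. That length changes the order of levels: Kcna4 was above Kcna5 in reads (27.2 against 18.1 CPM) but below it per length (1.29 against 4.74 FPKM). Libraries differed in how log2 CPM depended on length, with slopes per doubling of length from -0.143 in Sham_solvent replicate 1 to 0.113 in NPP_solvent replicate 3. The 3 Sham_herb libraries had slopes of 0.052 to 0.078, and 2 of the 3 Sham_solvent libraries had negative slopes. With all genes put in 3 equal classes by length, the median of the shortest class was 0.19 lower and that of the longest 0.12 higher in Sham_herb than in Sham_solvent. In NPP_solvent against Sham_solvent they were 0.13 lower and 0.09 higher.

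The medians of the members moved with this slope. With each library's length slope as a covariate, the member median went from 0.08 to 0.00 for NPP_solvent against Sham_solvent, from 0.10 to -0.04 for Sham_herb against Sham_solvent, and from -0.13 to 0.00 for the interaction. For Ctrl_solvent against Ctrl it was -0.12 with the covariate and -0.11 without. FPKM scales a gene by its length alike in every library, so it could not remove a length slope that differs between libraries. The medians on the log2(FPKM + 0.1) scale were 0.09, 0.12, -0.16 and -0.06 in those 4 comparisons. A member's change by counts and by FPKM differed by a median of 0.02 to 0.05, and 71 to 77 of 79 members had the same sign. For the same reason this closeness is no check of length.

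**Figure D5:**
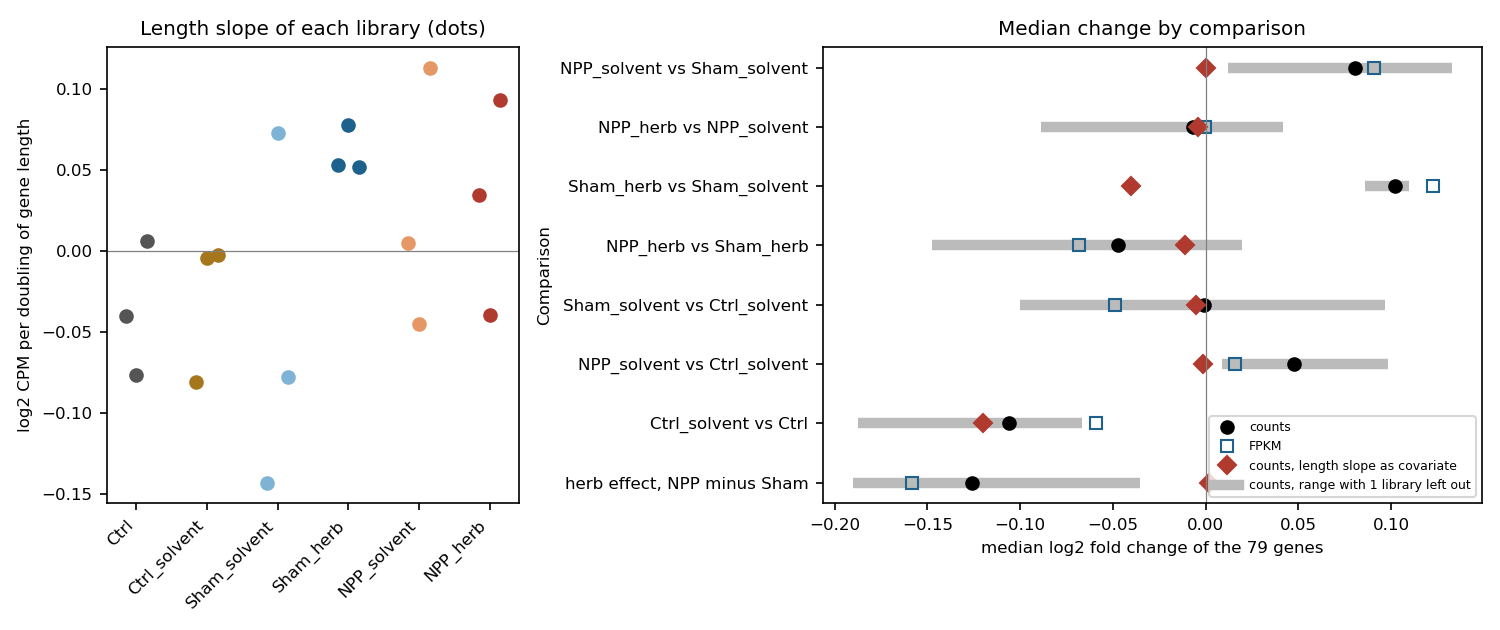
Left, the slope of log2 CPM on log2 gene length in each library; right, the median log2 fold change of the 79 members by counts, by FPKM and with the length slope as a covariate, with grey bars for the range when 1 library is left out. The covariate brings the NPP_solvent against Sham_solvent median to 0.00 and leaves that of Ctrl_solvent against Ctrl at -0.12.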

How the data were processed

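Paired-end messenger RNA libraries were made from rat dorsal root ganglia with a KAPA stranded kit, per the labels' protocols. The submitters' processing notes name HISAT2, DESeq2 and the build mRatBN7.2. The counter, its strand setting and its annotation are unknown (not given in the sources used here). Counts of overlapping genes or near-identical paralogs may therefore be shared. The deposited count table holds raw counts per gene, not normalized by the authors. A second deposited table holds FPKM scaled by the authors; 121 genes lack an FPKM value.

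Members and lists were chosen with earlier results of these data known. Genes passed filterByExpr (17043 of 25678; all 79 members passed) and TMM scaling (factors 0.946 to 1.04). edgeR 4.0.16 (R 4.3.3) was run with its quasi-likelihood test on all 18 libraries, with 1 coefficient per group and 12 residual degrees of freedom, with Benjamini-Hochberg adjustment over all genes tested and a threshold of 0.05. Adjusted p-values are from edgeR unless DESeq2 1.42.0 is named. Log2 CPM used a prior count of 2. Differences are log2 fold changes ± SE. FPKM was tested with limma 3.58.1 on log2(FPKM + 0.1), a scale that understates changes of low genes. Gene length was the length implied by counts and FPKM. The statistics were tested on simulated counts with changes put into genes at a mean of at least 1 CPM. For NPP_solvent against Sham_solvent, 28.4% of 1.5-fold, 64.2% of 2-fold and 97.0% of 4-fold changes were called, with 5 false calls. For Atf3 slopes of 0.15, 0.3 and 0.6, 13.4%, 64.2% and 97.0% were called, with 6 false calls. Small changes were thus mostly missed in that setting. Apart from the changes put in, the simulated libraries differed only in size and in sampling at the fitted dispersion. They had no length slopes and no shifts of marker genes between libraries, as the real libraries did. The shares called may therefore be too high, and the false calls too few, for the real libraries. Named genes were the most abundant member of each subfamily, fixed genes known from sensory ganglia, and, per comparison, members with the smallest p (up to 5 per direction under 0.05 in the 3 main comparisons, 2 in the others and 4 for Atf3); further genes were named after their values were seen. Replicates correlated at a median r of 0.977, and no pair agreed within sampling noise (smallest chi-square per degree of freedom 12.4). Alternatives were other scaling, filters, tests and units, a length covariate, a replicate block and each library left out. Values of some members are not reported here by name; they remain in the counts, sums and medians.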

Additional observations from a re-analysis of the deposited data

How the results depend on the processing

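The 51 values (calls, member medians, 32 named changes and the number of members) were recomputed under the alternatives, which gave 1400 values. Of these, 1386 kept their direction and their side of the threshold or stayed within the replicate spread. That count is a lenient measure. A median counted as kept if it moved by less than 0.10, the within-group SD of a library's member median. The NPP_solvent against Sham_solvent median thus counted as kept when the length covariate took it from 0.081 to 0.00049. Many of the values also leave out a library of a group outside the comparison. No member was called in the main tests, so these alternatives cannot show whether calls are stable. The number of members called went from 0 to 1 in Ctrl_solvent against Ctrl, 3 in the test of all groups and 2 for the Atf3 slope with DESeq2, and to 1 for the Atf3 slope without the group term. With the length slope as a covariate the member median was -0.040 for Sham_herb against Sham_solvent and 0.0020 for the interaction. With 1 library left out, called members ran from 0 to 2 in Ctrl_solvent against Ctrl, 0 to 1 in NPP_solvent against Ctrl_solvent and 0 to 1 over all groups, and the member median of NPP_herb against Sham_herb from -0.147 to 0.019, the lowest without NPP_herb replicate 3. The medians also crossed 0 in Sham_solvent against Ctrl_solvent (-0.100 to 0.097) and NPP_herb against NPP_solvent (-0.089 to 0.042). Members at an unadjusted p under 0.05 ran from 1 to 4 over the alternatives that keep all libraries in NPP_herb against NPP_solvent, 4 to 10 in Sham_herb against Sham_solvent, 0 to 1 in NPP_herb against Sham_herb and 0 to 4 in Sham_solvent against Ctrl_solvent. The number of members was 82 at a minimum of 90 reads and 57 at 1800.

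Replicate numbers are shared between groups, but same-numbered libraries did not deviate together: 45 pairs had r from -0.28 to 0.23 with a median of 0.0082, 9 were over 0.1, and 10 of 18 libraries were closer on average to their own number. With a replicate block 0 members were called in every test, and the member median was 0.072 for NPP_solvent against Sham_solvent, -0.0062 for NPP_herb against NPP_solvent and 0.108 for Sham_herb against Sham_solvent. The cause of the shifts above was not tested. Depth of 18170925 reads in the shallowest library limits members such as Kcns2.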
